A study of Saccharomyces cerevisiae with 12 samples.

Results

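The comparison described here is the move of wild-type diploid Saccharomyces cerevisiae out of a rich medium and into a medium poor in nitrogen. Its members are the 6 of 12 Affymetrix Yeast S98 arrays whose labels name strain MLY61, which is MATa/alpha and homozygous for ura3-52. Of these, 3 arrays were made after 2 h at 30 °C in SLAM, a synthetic low-ammonium medium with 50 µM ammonium sulfate as added nitrogen, 2% maltose and 0.17% yeast nitrogen base without amino acids. The other 3 were made in YPM, standard rich maltose medium, at an OD600 of 1.0, and the SLAM cells had been grown in YPM to the same density and collected on a filter first. The remaining 6 arrays hold strain MLY132, which lacks both copies of GPA2 and was otherwise treated alike, and they enter through the shared estimate of the spread, the choice of probe sets, the principal components and a background level. The design text states 3 cultures for each group. Of 9335 probe sets, those with 1 gene symbol gave 5656 genes, each read from its brightest probe set, and all 5656 are described.

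Yeast prefers glutamine, ammonium and a few amino acids as nitrogen sources, and while these are plentiful it keeps genes for poorer sources silent, a state called nitrogen catabolite repression. The GATA factors Gln3 and Gat1 activate those genes when the repression is lifted, and Dal80 and Gzf3 hold them in check. Amino acids outside the cell are sensed separately, by the Ssy1 complex, which turns on a different set of permeases. The kinase complex TORC1 ties nitrogen supply to ribosome production, and starved diploids can grow as pseudohyphae. SLAM and YPM differ in amino acids, peptides, phosphate, metals and vitamins as well as in ammonium, and the filtering step separates them too, so the shares of these differences in any change cannot be told apart. A fixed 8 µg of RNA was labelled per array, so each value is relative to the rest of the RNA, and a gene's loss of RNA and a gain by other genes cannot be told apart.

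The labels were set against the data first. GPA2, the G protein alpha subunit that MLY132 lacks, read log2 11.10, 11.00 and 10.56 on the SLAM arrays and 10.27, 9.70 and 10.00 on the YPM arrays, against at most 5.60 in the deletion strain. That reading is used below as a background level: a gene whose lower group averaged no more than 5.60 has only a lower bound for its change, taken with each array of that group at no less than this level. URA3, which should be low in a ura3-52 strain, averaged under it in both media (adjusted p = 0.287). Of 22 haploid-specific mating genes, which a diploid represses, 9 had a SLAM mean and 11 a YPM mean at or under the background level, and their YPM means ranged from 4.00 to 8.14. Wild-type SLAM replicate 2 stood apart from the other SLAM arrays. On a first principal component with 59.4% of the variance over 12 arrays, SLAM replicates 1, 2 and 3 lay at 19.4, -10.8 and 28.4 and the YPM arrays between -43.6 and -33.0. Spearman correlations over genes were 0.867 to 0.956 among the SLAM arrays and 0.956 to 0.984 among the YPM arrays. The median SD of a gene was 0.387 in SLAM and 0.208 in YPM.

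The 3 largest rises after 2 h in SLAM were in genes of nitrogen uptake and its control, and genes of iron and copper uptake, amino acid import and ribosome production were among those that fell. In the limma fit with Benjamini-Hochberg adjustment over all genes, 296 genes were higher in SLAM (5.23%) and 415 lower (7.34%) at an adjusted p under 0.05. The median log2 difference was 1.36 among the 296, -1.26 among the 415 and -0.05 over all 5656 genes. A change of at least 2-fold was seen in 221 of the higher and 324 of the lower genes, and of at least 8-fold in 14 and 8. The SLAM and YPM values did not overlap in 857 genes higher in SLAM (15.2%) and 1153 lower (20.4%). Centring the arrays on the median of the tested genes gave 381 higher and 362 lower. Without the deletion strain's arrays in the fit 163 were higher and 213 lower. With SLAM replicate 2 left out the counts were 647 (11.4%) and 767 (13.6%). The total was 391, 62 and 153 without YPM replicates 1, 2 and 3, and 443 and 107 without SLAM replicates 1 and 3. Over all 9275 probe sets but controls 698 passed (7.53%). Replicate 2 was the SLAM array nearest to YPM in 193 of the 296 higher genes and 199 of the 415 lower ones. It lay beyond all 3 YPM arrays in 288 and 412. Replicate 2 was in the fit that called these genes, which favours such values, so these counts are no check on it.

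**Figure D1:**
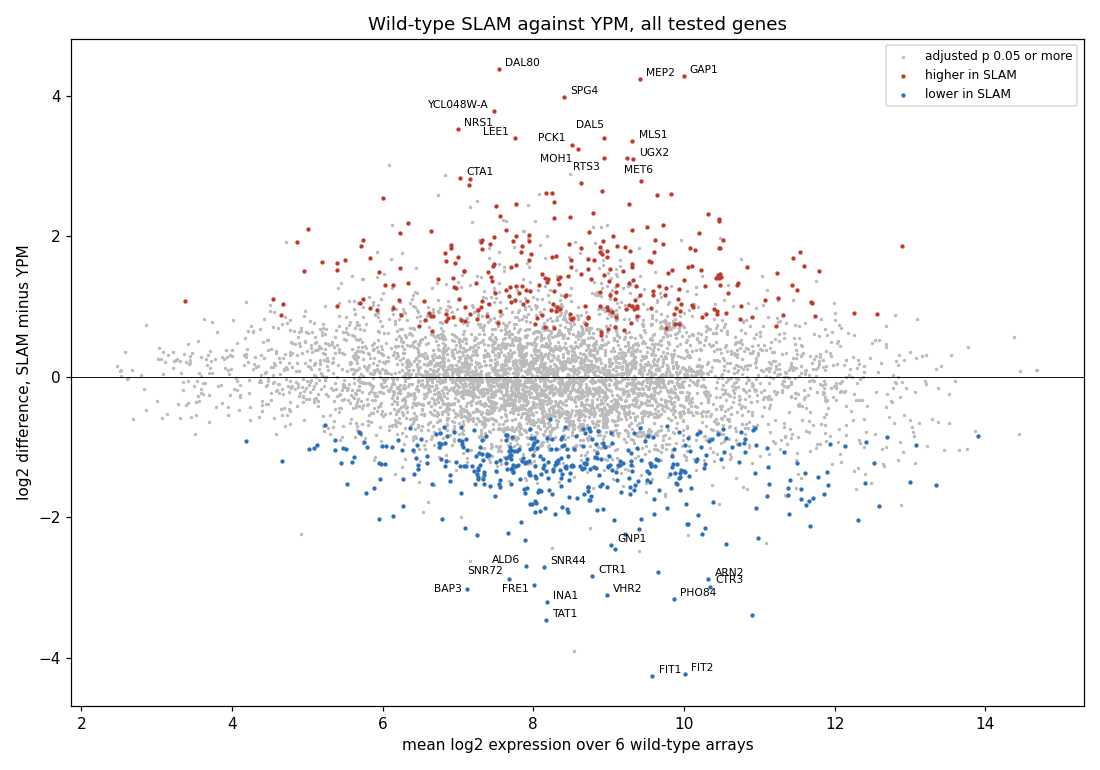
Each point is 1 of 5656 genes: the x axis is the mean log2 expression over the 6 wild-type arrays and the y axis the log2 difference, SLAM minus YPM. Red points (296) are higher and blue points (415) lower at an adjusted p under 0.05, grey points did not pass, and the labels mark the 15 largest rises and 15 largest falls on probe sets not marked for shared targets; called genes are found at nearly every level.

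The largest rise was that of DAL80, a GATA factor that represses nitrogen catabolic genes and is itself under their control. DAL80 read 9.98, 7.80 and 11.42 on the SLAM arrays, against 5.78, 4.81 and 5.47 on the YPM arrays, so that every SLAM value lay above every YPM value. The log2 difference was 4.38 (SE 0.65), and because its YPM mean lay at the background level this is given as a rise of at least 16.8-fold (adjusted p = 0.00472, 3 arrays a group). GAP1, the permease that accepts all amino acids, read 12.22, 11.41 and 12.78 in SLAM and 8.47, 7.52 and 7.57 in YPM, a rise of 4.29 on the log2 scale with an SE of 0.36 (19.5-fold, adjusted p = 0.000153). MEP2, the high-affinity ammonium permease that also serves as an ammonium sensor for pseudohyphal growth, read 11.92, 10.10 and 12.60 in SLAM and 8.08, 6.88 and 6.92 in YPM (log2 4.25, SE 0.53). In DAL80 and MEP2 the lowest SLAM value was that of replicate 2, and the groups were still more than 2 log2 units apart. The lower-affinity ammonium permeases, named here to complete the family, did not pass: MEP1 differed by 0.45 (SE 0.36) and MEP3 by 0.43 (SE 0.40).

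Among 13 regulators of nitrogen catabolite repression 4 rose and 0 fell (median 0.39). UGA3, the activator of the GABA utilisation genes, read 9.87, 9.34 and 10.65 in SLAM and 8.04, 7.27 and 7.57 in YPM (log2 2.33, SE 0.35, adjusted p = 0.00472), and 3 further probe sets of UGA3 gave 0.94 to 2.40. GAT1, an activating GATA factor, read 10.26, 10.28 and 11.23 in SLAM and 9.30, 8.36 and 8.24 in YPM (log2 1.95, SE 0.40). GLN3, the other activator, and its cytoplasmic anchor URE2, both named after their values were seen, differed by 0.19 (adjusted p = 0.639) and -0.63 (adjusted p = 0.126). Of 13 genes of ammonium transport and assimilation 3 rose and 0 fell (median 0.59): besides MEP2 these were GDH3, a glutamate dehydrogenase of non-fermentative growth (log2 1.89, SE 0.50), and NPR1, the kinase that keeps nitrogen permeases active (log2 1.17, SE 0.26). GLN1, glutamine synthetase, named after its values were seen, read 12.33, 12.24 and 12.81 in SLAM and 11.32, 11.72 and 11.62 in YPM, but did not pass (log2 0.91, SE 0.48, adjusted p = 0.211).

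Of 10 genes for the use of allantoin, urea and amides 6 rose and 1 fell (median 1.82). Wholly above their YPM values lay 7, where 15.2% of all genes did. DAL5, the allantoate permease, read 11.45, 8.06 and 12.43 in SLAM and 7.06, 7.59 and 7.08 in YPM (log2 3.41, SE 0.80, adjusted p = 0.0222). DUR3, the urea permease, read 9.46, 6.49 and 9.58 in SLAM and 5.88, 5.61 and 5.86 in YPM (log2 2.73, SE 0.61). DAL4, the allantoin permease, read 10.20, 7.36 and 10.86 in SLAM and 6.77, 7.02 and 6.77 in YPM (log2 2.62, SE 0.69). In all 3 permeases SLAM replicate 2 rose least, by under 1 log2 unit, and without it the differences were 4.70, 3.74 and 3.67. DAL3, which encodes ureidoglycolate lyase, did not share that order: it read 10.32, 11.28 and 11.20 in SLAM and 8.78, 8.20 and 8.08 in YPM (log2 2.58, SE 0.39, adjusted p = 0.00472). ASP1, a cytosolic asparaginase, fell, with 8.99, 9.73 and 8.72 in SLAM and 10.69, 10.59 and 10.74 in YPM (log2 -1.53, SE 0.30). DAL4, DAL2 and DCG1 are neighbours on chromosome IX of assembly R64 and all 3 rose; DAL2 and DCG1 were named after their values were seen.

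Genes for breaking down proline, GABA and arginine were split, with 1 of 10 higher and 1 lower (median 0.65). UGA4, the GABA permease, read 9.11, 6.72 and 9.27 in SLAM and 6.41, 6.46 and 6.57 in YPM (log2 1.89, SE 0.55, adjusted p = 0.0436). PUT1, proline oxidase, named after its values were seen, read 10.91 and 11.72 in SLAM replicates 1 and 3, 7.14 in replicate 2, and 6.76, 7.79 and 6.57 in YPM, so that the groups overlapped and it did not pass (adjusted p = 0.0694). CAR1, arginase, which arginine induces, fell: it read 9.22, 10.98 and 9.85 in SLAM and 11.98, 11.88 and 11.80 in YPM (log2 -1.87, SE 0.41). BAT2, the cytosolic branched-chain aminotransferase of the Ehrlich pathway, also fell, with 8.63, 8.85 and 8.83 in SLAM and 9.95, 10.42 and 10.36 in YPM (log2 -1.47, SE 0.38).

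Amino acid permeases went both ways. A list named for broad permeases under nitrogen control, which also holds narrower and vacuolar transporters, had 4 of 14 higher and 1 lower (median 1.30). Of 14 permeases and helpers induced by external amino acids 0 rose and 5 fell (median -1.25). Besides GAP1 the risers were SAM3, the S-adenosylmethionine permease, AVT4, which exports amino acids out of the vacuole, and AGP2, a carnitine and polyamine transporter, by 1.79, 1.54 and 0.66; the probe set of SAM3 is marked for shared targets. TAT1, a permease for valine, leucine, isoleucine and tyrosine, read 6.07, 7.13 and 6.08 in SLAM and 9.86, 9.86 and 9.98 in YPM, an 11.1-fold fall (log2 -3.47, SE 0.38, adjusted p = 0.000689). TAT2, the tryptophan and tyrosine permease, read 6.37, 7.36 and 6.46 in SLAM and 9.04, 9.01 and 9.09 in YPM (log2 -2.32, SE 0.25). BAP3, a branched-chain amino acid permease, read 5.25, 7.19 and 4.39 in SLAM and 7.86, 9.10 and 8.96 in YPM (log2 -3.03, SE 0.57). GNP1, the glutamine permease, read 7.61, 8.90 and 6.98 in SLAM and 9.84, 10.43 and 10.43 in YPM (log2 -2.40, SE 0.44). In all 4 the highest SLAM value was that of replicate 2, and it stayed below the lowest YPM value. The fifth was BAP2, named to complete the count (log2 -1.90, SE 0.43). HIP1, the histidine permease, fell by 1.03 on the log2 scale.

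**Figure D2:**
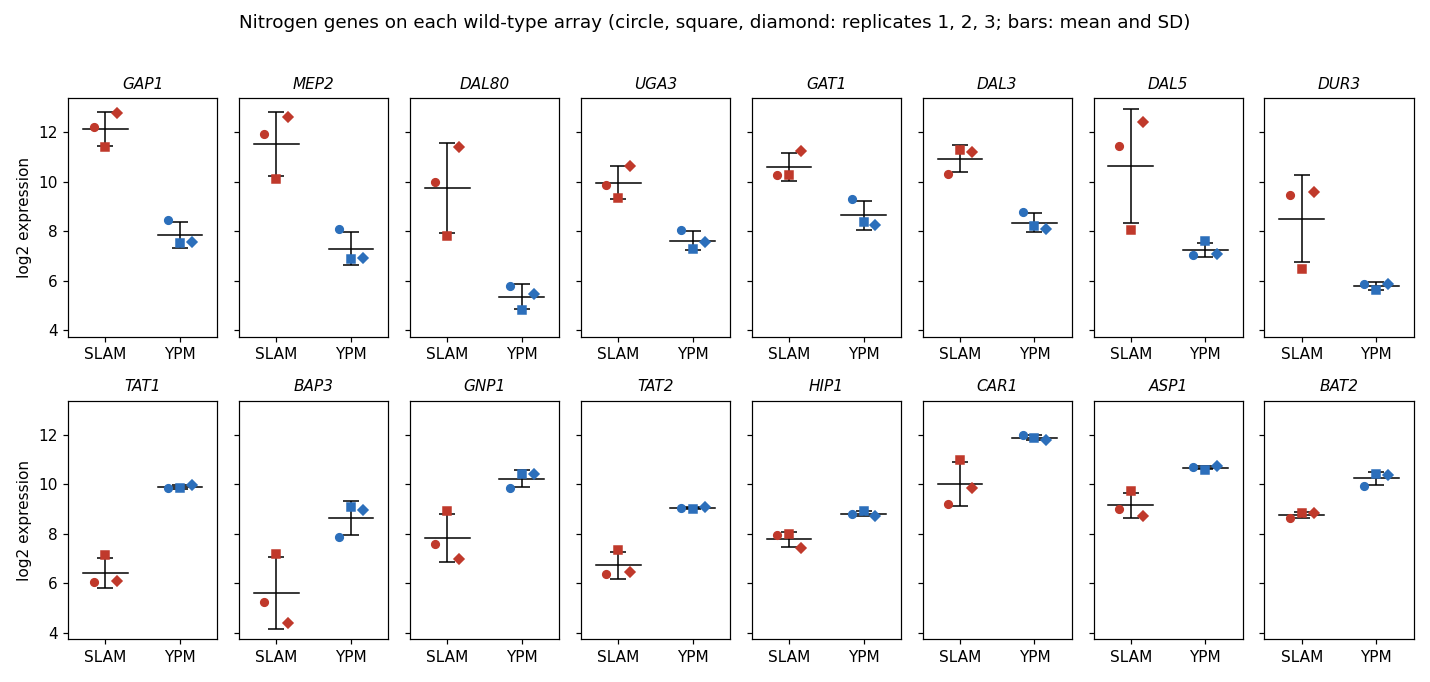
Log2 expression (y axis) of 16 nitrogen genes on the 3 SLAM and 3 YPM arrays of the wild type, with symbols for replicates 1 to 3, a horizontal bar for the mean and a vertical bar for the SD. GAP1, MEP2 and DAL80 lie more than 1 log2 unit higher on every SLAM array, TAT1, GNP1 and TAT2 lie lower on each, and the square of SLAM replicate 2 is nearest to YPM in most panels.

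Over the 101 genes of these nitrogen lists 19 rose and 9 fell, where 5.23% of all genes rose and 7.34% fell. These counts depend on single arrays: 34 rose and 13 fell without SLAM replicate 2. Left-out YPM replicates 1, 2 and 3 gave 11, 5 and 6 higher with 8, 2 and 4 lower, and left-out SLAM replicates 1 and 3 gave 9 and 5 higher with 8 and 4 lower. DAL80, GAP1, MEP2, UGA3, DAL3, TAT1 and TAT2 passed under all 24 alternative settings.

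Of 11 arginine synthesis genes 5 rose and 0 fell (median 0.92). ARG4, argininosuccinate lyase, read 11.27, 11.70 and 11.76 in SLAM and 10.55, 8.55 and 8.98 in YPM (log2 2.22, SE 0.41, adjusted p = 0.0109). CPA1, the small subunit of carbamoyl phosphate synthetase, read 11.58, 10.88 and 12.03 in SLAM and 9.76, 9.23 and 9.64 in YPM (log2 1.95, SE 0.34). ARG1, argininosuccinate synthetase, rose by 2.64 (SE 0.78) with YPM values of 9.44, 6.16 and 7.16, so that YPM replicate 1 lay close to the SLAM values of 10.04, 10.01 and 10.65. Of 9 lysine genes 2 rose: LYS1, saccharopine dehydrogenase (log2 2.28, SE 0.58), and LYS5, which activates the aminoadipate reductase, with 9.73, 10.16 and 10.14 in SLAM and 8.66, 8.74 and 8.51 in YPM (log2 1.38, SE 0.20, adjusted p = 0.00472).

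Among 11 branched-chain genes 2 rose and 1 fell, and they included both forms of 1 enzyme. LEU4, the main alpha-isopropylmalate synthase, rose by 0.91 (SE 0.23), while LEU9, its paralogue, read 6.80, 7.36 and 6.29 in SLAM and 8.59, 8.22 and 8.04 in YPM (log2 -1.47, SE 0.33). LEU1, the next enzyme of the pathway and an iron-sulfur protein, read 10.07, 9.27 and 9.97 in SLAM and 8.43, 7.95 and 7.62 in YPM (log2 1.78, SE 0.35). ARO4, which opens aromatic amino acid synthesis, fell by 1.38 (SE 0.29) as the 1 call among 19 histidine and aromatic genes. THR1, homoserine kinase, fell by 1.08 (SE 0.19) as the 1 call among 19 genes of the aspartate family, serine and glycine. GCN4, the general activator of amino acid synthesis genes, named after its values were seen, read 12.62, 12.39 and 12.80 in SLAM and 12.40, 12.31 and 12.31 in YPM (adjusted p = 0.357); Gcn4 is known to be controlled mainly through translation, which these arrays do not measure.

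Of 26 genes of sulfate assimilation and methionine synthesis 4 rose and 0 fell (median 1.26, or 0.81 without SLAM replicate 2). Among the 26, 12 lay wholly above YPM, where 15.2% of all genes did. MET13, methylenetetrahydrofolate reductase, read 10.84, 10.71 and 10.93 in SLAM and 7.89, 8.28 and 7.95 in YPM (log2 2.79, SE 0.24, adjusted p = 0.000153). MET6, which forms methionine from homocysteine, read 10.40, 11.23 and 10.77 in SLAM and 8.01, 7.85 and 7.19 in YPM (log2 3.12, SE 0.47). STR3, which turns cystathionine into homocysteine, read 8.33, 10.76 and 9.56 in SLAM and 7.01, 6.75 and 7.04 in YPM (log2 2.62, SE 0.67). The upstream sulfate enzymes, named after their values were seen, were spread more widely in SLAM. MET3, ATP sulfurylase, read 7.44, 10.96 and 9.00 in SLAM and 6.47, 7.33 and 6.96 in YPM (adjusted p = 0.0977), and MET16, which reduces activated sulfate, read 7.44, 11.09 and 8.95 in SLAM and 6.24, 7.14 and 6.75 in YPM (adjusted p = 0.0782). In both, replicate 2 was the highest SLAM array and replicate 1 the lowest. The list as a whole lay 0.27, 2.25 and 1.04 above its YPM mean in SLAM replicates 1, 2 and 3, so that replicate 2 was the furthest from YPM here. Over the 95 genes of the amino acid lists 13 rose and 3 fell, where 5.23% of all genes rose and 7.34% fell. Without SLAM replicate 2 the counts were 18 and 8, where 11.4% of all genes rose and 13.6% fell. Left-out YPM replicates 2 and 3 gave 4 and 6 higher with 1 and 1 lower, and a left-out SLAM replicate 3 gave 6 higher and 1 lower.

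**Figure D3:**
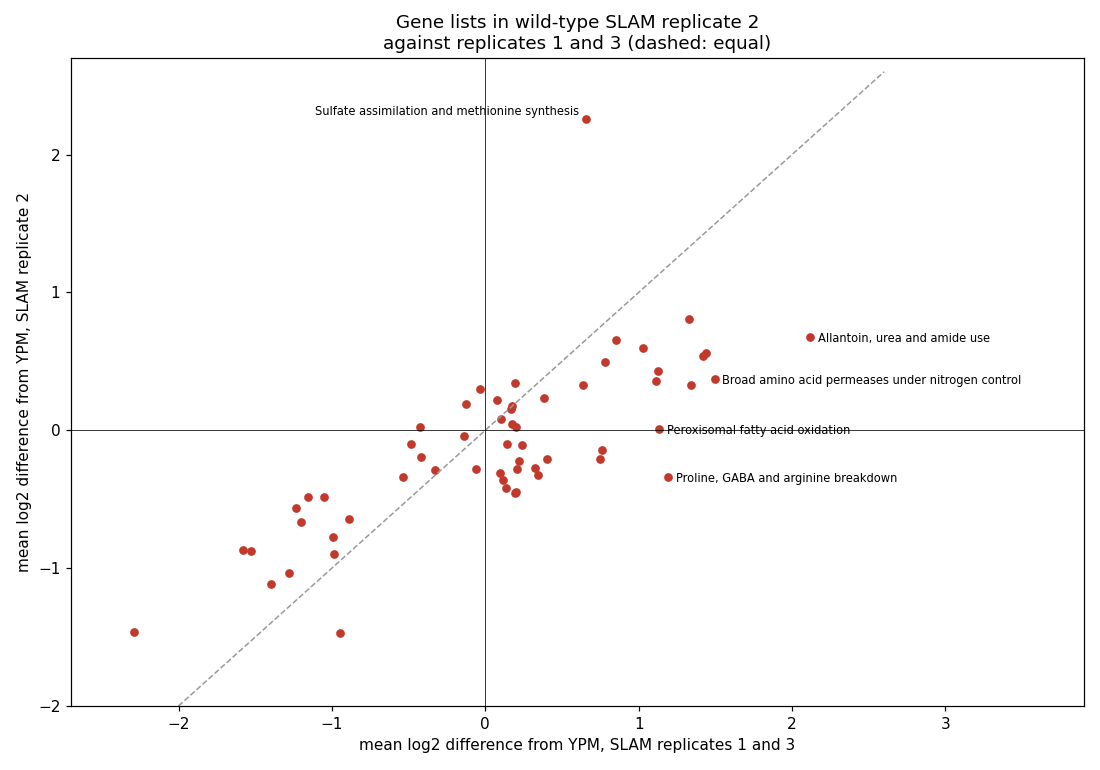
Each point is 1 of 59 gene lists: the mean log2 difference of its members from their YPM mean in SLAM replicates 1 and 3 (x axis, average of both arrays) and in SLAM replicate 2 (y axis), with equality dashed. Replicate 2 lay nearer to YPM than both other SLAM arrays in 33 of 59 lists, while the sulfate and methionine list stands far above the line.

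Genes for making ribosomes and for translation fell in large numbers. Across the 284 genes of the 8 lists on ribosomal proteins, ribosome assembly, RNA polymerases I and III, tRNAs and translation factors, 0 rose and 121 fell (median -1.11), where 7.34% of all genes fell. With SLAM replicate 2 left out 189 fell. The count was 64 without YPM replicate 1, 4 without YPM replicate 2, 17 without YPM replicate 3 and 11 without SLAM replicate 3, while the median stayed between -1.31 and -0.84. SLAM replicate 3 was lowest in each of the 8 lists, at -1.21 to -1.99, and SLAM replicates 1 and 2 lay at -0.48 to -1.23.

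Of 34 measured small-subunit ribosomal protein genes 16 fell (median -1.23) and 32 lay wholly below YPM. Of 47 large-subunit genes 22 fell (median -1.24) and 43 lay wholly below, where 20.4% of all genes did. Ribosomal protein genes often come as near-identical pairs, and 30 of these 81 had probe sets marked for shared targets. RPS22B fell furthest, with 9.32, 9.66 and 8.66 in SLAM and 12.40, 12.68 and 12.73 in YPM (log2 -3.39, SE 0.38, adjusted p = 0.000689), and its other probe sets gave -4.54 and -3.88. RPL3, which has 1 copy in the genome and helps to form the peptidyl transferase centre, read 10.71, 9.63 and 9.17 in SLAM and 11.57, 12.44 and 12.37 in YPM (log2 -2.29, SE 0.51). ASC1, a ribosomal protein that also acts as the G protein beta subunit for Gpa2, read 11.13, 12.13 and 10.60 in SLAM and 13.33, 13.37 and 13.27 in YPM (log2 -2.04, SE 0.36, adjusted p = 0.00886). RPL9A fell by 2.45 and RPL7B by 2.78 on the log2 scale, both on probe sets marked for shared targets. Of the large-subunit genes, 1 lay above its YPM mean, and it was wholly above: RPL15B, named after its values were seen.

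Assembly factors followed. Of 39 genes of the small-subunit processome and snoRNP proteins 21 fell (median -1.31), and all 39 lay below 0. NOP1, the snoRNA-guided RNA methylase fibrillarin, read 9.70, 9.82 and 7.49 in SLAM and 10.90, 11.24 and 11.14 in YPM (log2 -2.09, SE 0.49). UTP13, a processome protein, read 7.73, 7.48 and 5.95 in SLAM and 8.82, 9.09 and 9.04 in YPM (log2 -1.93, SE 0.43). UTP22 fell by 1.86 on its brightest probe set, and 5 dimmer ones gave -0.07 to -1.19. Of 48 large-subunit assembly factors 23 fell (median -1.21) and all 48 lay below 0. PUF6, which binds pre-ribosomes and ASH1 RNA, read 6.88, 5.17 and 5.25 in SLAM and 7.91, 7.92 and 7.56 in YPM (log2 -2.03, SE 0.42), and ARX1, a nuclear export factor of the large subunit, fell by 2.07 (SE 0.46). A list of RNA polymerase I and III subunits also holds the regulators RRN3 and MAF1. Of its 25 genes 8 fell (median -0.99), led by RPA49 and RPA43 of polymerase I at -1.73 and -1.66. RPA43 and RPA190 are neighbours on chromosome XV of R64 and both fell. RPA190 differed by -1.33 on its brightest probe set, and its dimmer ones gave 0.03 to -1.45.

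Small nucleolar RNAs guide the modification and cutting of ribosomal RNA and carry SNR symbols, as do some RNAs of the spliceosome. Of 61 genes whose symbol starts with SNR, a group put together after values were seen, 0 rose and 8 fell (median -0.24). Wholly below YPM lay 18 of them. Over all genes 7.34% fell and 20.4% lay wholly below YPM. The spliceosomal RNAs SNR6, SNR7-L, SNR14 and SNR19 did not pass. Without YPM replicate 2 the number that fell was 4, and without SLAM replicate 3 it was 5. SNR72 read 7.20, 4.99 and 6.50 in SLAM and 8.83, 9.42 and 9.08 in YPM (log2 -2.88, SE 0.46, adjusted p = 0.00592). SNR44 read 6.98, 6.44 and 6.93 in SLAM and 9.29, 9.92 and 9.28 in YPM (log2 -2.71, SE 0.48, adjusted p = 0.00886). On R64 SNR44 lies within the span of RPS22B, the ribosomal protein gene that fell furthest. The 3 other SNR genes found within a tested gene did not pass. SNR39 lay at -0.48 within RPL7A at -1.51, SNR38 at 0.21 within TEF4 at -1.81, and SNR54, with a YPM mean under the background level, within IMD4 at -1.97. Of the SNR72 to SNR78 genes on chromosome XIII, SNR72, SNR75 and SNR76 fell, by 2.88, 1.92 and 1.40 on the log2 scale. SNR73 and SNR77 differed by -1.11 and -1.37 and narrowly did not pass in limma (adjusted p = 0.0511 and 0.0516). SNR74 and SNR78 lay at -0.46 and 0.03, with means under the background level in both media. Target was made from a poly-T primer, and mature snoRNAs carry no poly(A) tail, so which RNA species these probe sets read was not tested.

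Genes for the charging of tRNA and for translation also held falls and no rises. Of 20 aminoacyl-tRNA synthetase genes, counting the cofactor ARC1, 6 fell (median -1.03) and all 20 lay below 0. VAS1, for valine, read 8.87, 9.22 and 8.71 in SLAM and 9.87, 10.42 and 10.25 in YPM (log2 -1.25, SE 0.27). A list named for initiation and elongation factors also holds the release factors SUP35 and SUP45, PAB1, and the tRNA methylase genes GCD10 and GCD14. Of its 33 genes 11 fell (median -0.83). RPG1, a core subunit of initiation factor eIF3, read 9.70, 9.64 and 8.56 in SLAM and 10.87, 10.91 and 10.87 in YPM (log2 -1.58, SE 0.29, adjusted p = 0.0109). TEF4, an elongation factor eEF1B subunit, fell by 1.81 (SE 0.52). Of 40 tRNA modification and processing genes 16 fell (median -0.74). They included the methylases TRM11 (log2 -1.76, SE 0.47) and TRM1 (log2 -1.63, SE 0.34).

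Many genes for mitochondrial ribosomal proteins fell, and no gene of the respiratory chain was called with all arrays. Of 66 genes for mitochondrial ribosomal proteins 0 rose and 32 fell (median -1.05), and 65 lay below 0. RSM26 read 7.97, 8.07 and 7.71 in SLAM and 9.78, 9.79 and 9.27 in YPM (log2 -1.69, SE 0.23, adjusted p = 0.00292) and passed under all 24 alternatives. MRP4 read 7.71, 6.85 and 7.10 in SLAM and 9.24, 9.38 and 8.66 in YPM (log2 -1.88, SE 0.39). Of 43 genes of the respiratory chain and ATP synthase 0 passed in either direction in limma (median 0.18). In the same limma fit 7 had an unadjusted p under 0.05. The share of all genes under that cut is not given here. Such counts, in this and later lists, therefore cannot be read as an excess. Wholly above YPM lay 9, where 15.2% of all genes did, and wholly below lay 1, where 20.4% did. SDH2, the iron-sulfur subunit of succinate dehydrogenase, read 12.50, 12.18 and 12.61 in SLAM and 11.67, 11.20 and 10.33 in YPM and did not pass (adjusted p = 0.100). Over these 109 genes, 52 fell without SLAM replicate 2 and 2, both of the respiratory chain, rose. In that setting 13.6% of all genes fell and 11.4% rose. With YPM replicates 1, 2 and 3 left out 9, 1 and 11 fell, and with SLAM replicates 1 and 3 left out 9 and 2 fell.

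**Figure D4:**
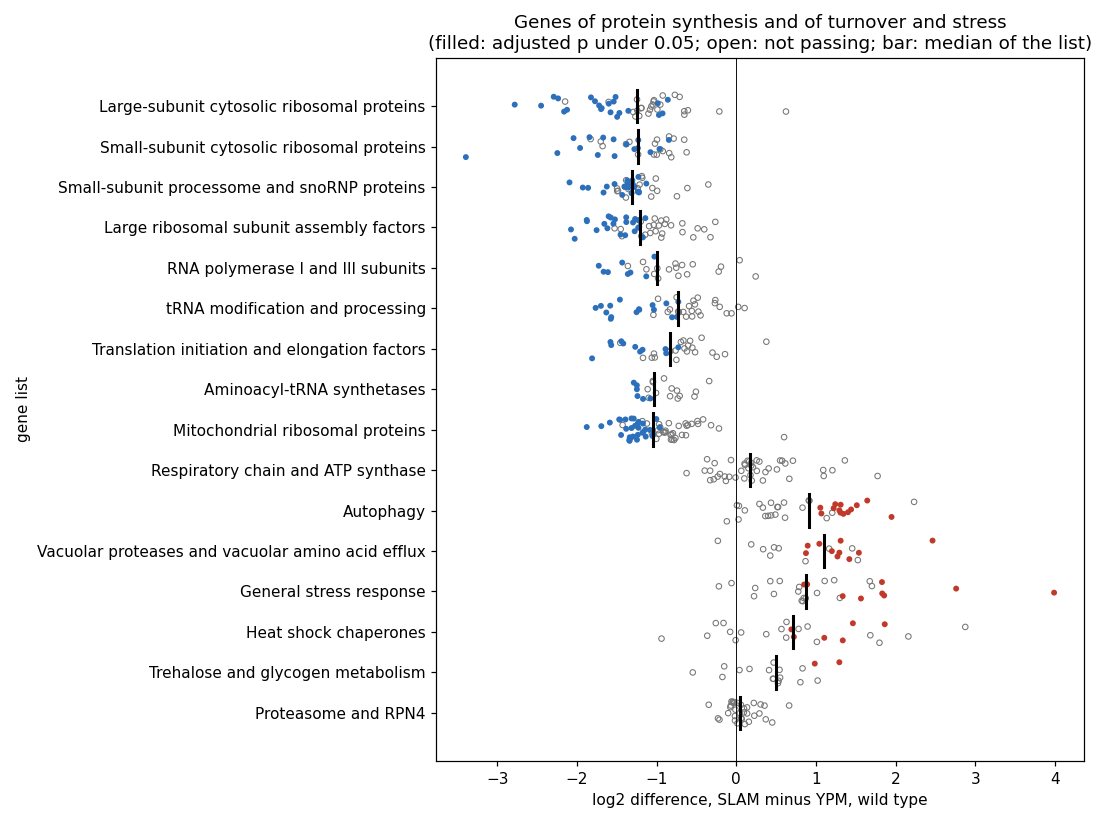
Log2 differences, SLAM minus YPM (x axis), of the members of 16 gene lists (y axis); filled points passed at an adjusted p under 0.05, open points did not, and the bar is the median of each list. The first 9 lists, on ribosomes of the cytosol and mitochondria and on translation, have medians from -1.31 to -0.74, while those on autophagy, vacuolar breakdown and the general stress response lie at 0.88 to 1.10.

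Genes of self-digestion and of protection held rises and no falls. Autophagy carries cytoplasm to the vacuole, where proteases release its amino acids. Of 35 autophagy genes 13 rose and 0 fell (median 0.91), and 34 lay above 0, where 5.23% of all genes rose. ATG8, the ubiquitin-like protein of the autophagosome membrane, read 11.18, 10.41 and 11.36 in SLAM and 9.18, 9.51 and 9.73 in YPM (log2 1.51, SE 0.31, adjusted p = 0.015). ATG33, which acts in the removal of mitochondria, read 10.29, 10.53 and 10.23 in SLAM and 8.75, 8.66 and 8.71 in YPM (log2 1.64, SE 0.26, adjusted p = 0.00554). ATG45, a receptor for glycogen, read 9.51, 9.87 and 9.61 in SLAM and 8.40, 8.11 and 8.16 in YPM (log2 1.44, SE 0.25). ATG40, the receptor for endoplasmic reticulum, rose by at least 1.12 on the log2 scale from a YPM mean at the background level, but SLAM replicate 2 (5.23) lay below the highest YPM value (5.30).

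Of 20 genes of vacuolar breakdown and amino acid release 10 rose and 0 fell (median 1.10). PRB1, proteinase B, read 12.40, 11.42 and 12.44 in SLAM and 10.19, 10.96 and 11.17 in YPM (log2 1.31, SE 0.32). APE1, aminopeptidase I, read 11.36, 10.85 and 11.40 in SLAM and 9.98, 9.77 and 9.59 in YPM (log2 1.42, SE 0.41). AVT4, which passes neutral and basic amino acids out of the vacuole, read 9.59, 8.40 and 10.48 in SLAM and 7.89, 7.98 and 7.99 in YPM (log2 1.54, SE 0.40). PEP4, proteinase A, named after its values were seen, differed by 0.19 (SE 0.23). RTC2, a vacuolar transporter of basic amino acids, rose by 2.46 (SE 0.74), though SLAM replicate 2 (7.75) overlapped YPM replicate 1 (8.24).

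Of 28 genes of the general stress response 9 rose and 0 fell (median 0.88). Among the 28, 16 lay wholly above YPM, where 15.2% of all genes did. SPG4, needed for survival in stationary phase, read 12.31, 8.20 and 10.70 in SLAM and 7.05, 6.27 and 5.93 in YPM (log2 3.99, SE 0.83, adjusted p = 0.0156); without SLAM replicate 2 the difference was 5.09. UBI4, polyubiquitin, read 11.46, 11.39 and 11.30 in SLAM and 9.56, 9.40 and 9.69 in YPM (log2 1.83, SE 0.20, adjusted p = 0.000689). DDR2, a small stress protein, read 14.09, 13.25 and 14.13 in SLAM and 12.66, 11.48 and 11.76 in YPM (log2 1.86, SE 0.33). CTT1, the cytosolic catalase, read 11.22, 9.02 and 9.79 in SLAM and 8.02, 7.33 and 6.40 in YPM (log2 2.76, SE 0.83, adjusted p = 0.0495). Of 24 heat shock chaperone genes 6 rose and 0 fell (median 0.71). HSP42, a small heat shock protein, read 11.53, 11.13 and 10.98 in SLAM and 9.92, 9.53 and 9.79 in YPM (log2 1.46, SE 0.35), and SSE2, of the Hsp110 family, rose by 1.86 (SE 0.48). HSP104, the disaggregase, rose by 1.11 (SE 0.28).

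In the 18 trehalose and glycogen genes 2 rose and 0 fell (median 0.50), so that 11.1% passed, where 12.6% of all genes did. Both that rose cut trehalose: NTH1, the neutral trehalase, by 0.99 (SE 0.23), and ATH1, the acid trehalase, by 1.29 (SE 0.38). Of 29 genes of glutathione and oxidative defence 3 rose and 0 fell (median 0.30), so that 10.3% passed. PRX1, the mitochondrial peroxiredoxin, read 10.81, 11.10 and 10.79 in SLAM and 9.64, 9.16 and 9.17 in YPM (log2 1.58, SE 0.25, adjusted p = 0.00607). CCP1, cytochrome c peroxidase, read 10.84, 10.72 and 10.84 in SLAM and 9.61, 8.47 and 7.81 in YPM (log2 2.17, SE 0.48). ECM38, which breaks down glutathione, rose by 1.53 (SE 0.41). Of 34 proteasome genes with their activator RPN4, 0 passed in either direction in limma, 2 had an unadjusted p under 0.05, and the median was 0.05.

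Over the 187 genes of these turnover and protection lists 42 rose and 0 fell, where 5.23% of all genes rose and 7.34% fell. Without SLAM replicate 2 the counts were 69 and 3, where 11.4% of all genes rose and 13.6% fell. With YPM replicates 1, 2 and 3 left out 23, 4 and 13 rose, and with SLAM replicates 1 and 3 left out 15 and 11 rose. ATG33, UBI4 and PRX1 passed under all 24 alternatives.

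**Figure D5:**
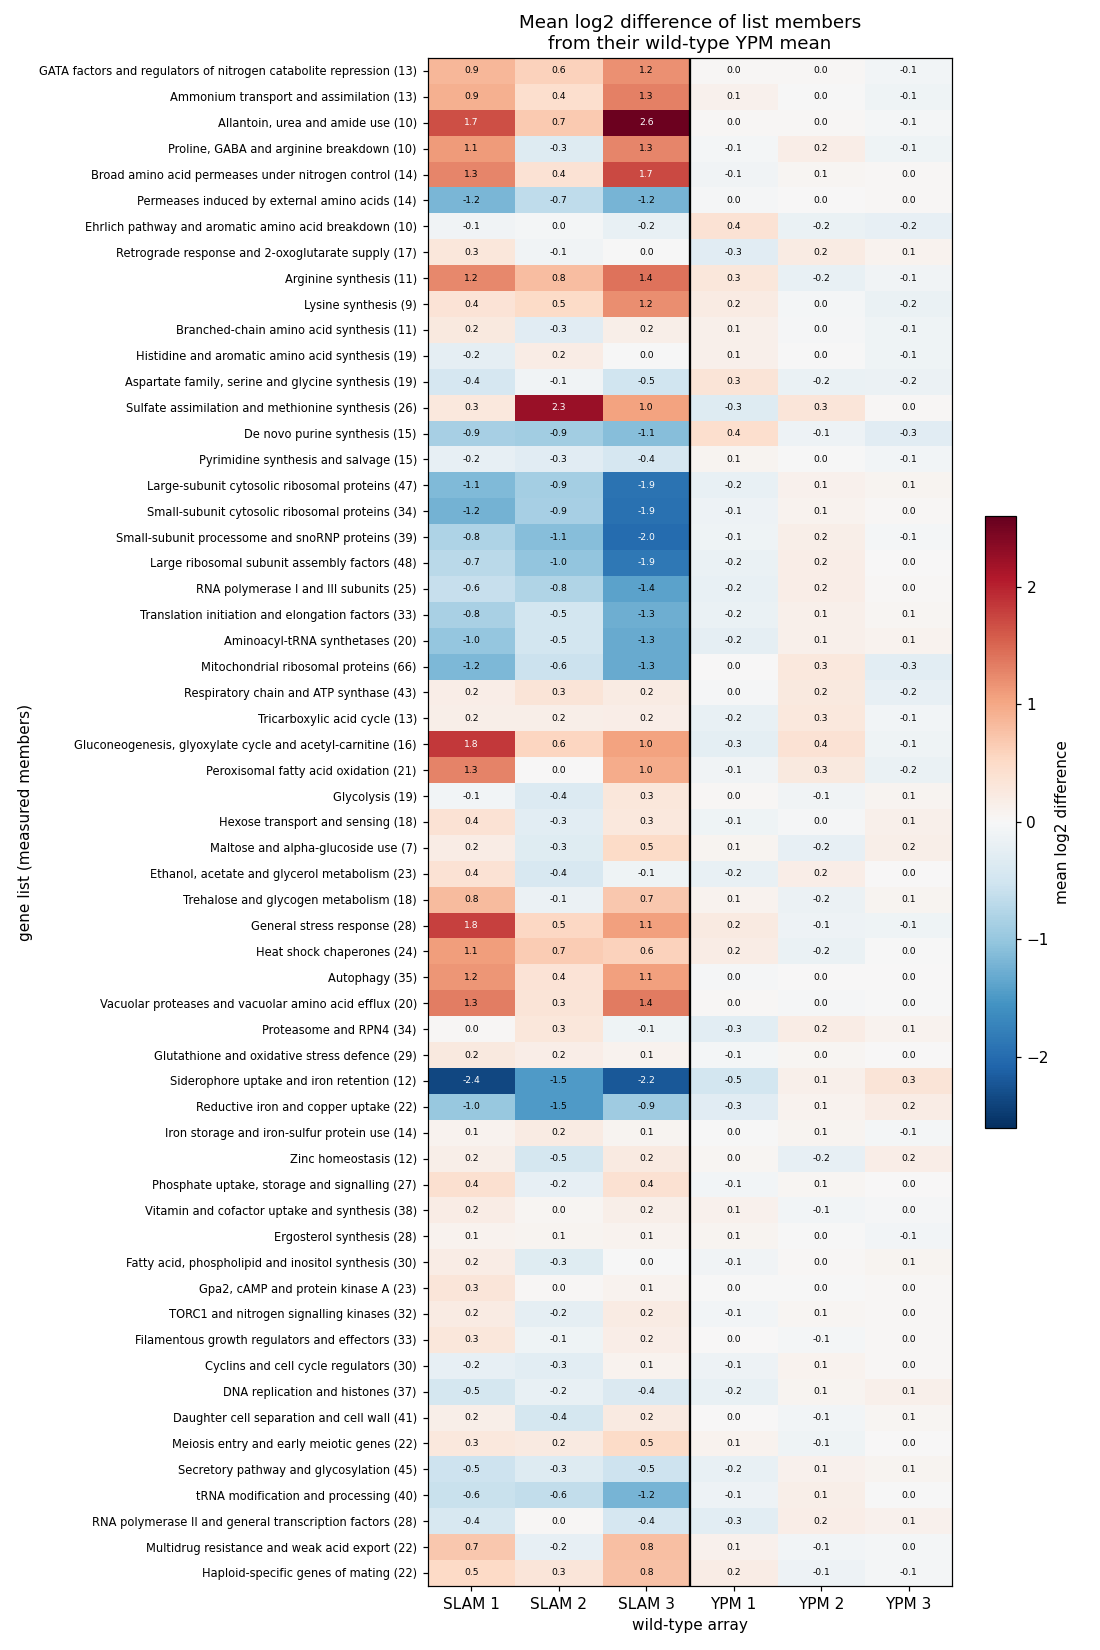
Mean log2 difference of the members of 59 gene lists (y axis, number measured in brackets) from their wild-type YPM mean on each of the 6 arrays (x axis, SLAM left of YPM). Red is higher and blue lower than the YPM mean. Lists on ammonium, allantoin and urea, autophagy and the general stress response are red on each SLAM array. Those on ribosomes, siderophores, reductive metal uptake and permeases induced by amino acids are blue. In SLAM replicate 2 the proline, GABA and arginine list lies at -0.34 and the trehalose and glycogen list at -0.14. The Ehrlich list is below 0 on each SLAM array, and the sulfate list is darkest in replicate 2.

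Both media hold maltose, and the carbon lists held calls in both directions. Of 16 genes of gluconeogenesis, the glyoxylate cycle and acetyl-carnitine 3 rose and 0 fell (median 0.92). Among the 16, 8 lay wholly above YPM, where 15.2% of all genes did. MLS1, malate synthase of the glyoxylate cycle, read 11.69, 9.61 and 11.66 in SLAM and 7.51, 8.05 and 7.35 in YPM (log2 3.35, SE 0.69, adjusted p = 0.0155). PCK1, which opens gluconeogenesis, read 11.45, 9.02 and 10.00 in SLAM and 7.24, 7.07 and 6.27 in YPM (log2 3.29, SE 0.82). CAT2, carnitine acetyltransferase, read 9.20, 8.29 and 8.84 in SLAM and 7.01, 6.92 and 6.38 in YPM (log2 2.01, SE 0.32, adjusted p = 0.00616). Enzymes of the same routes that were named after their values were seen did not pass: ICL1, isocitrate lyase, differed by 1.49 (adjusted p = 0.120), and FBP1, fructose-1,6-bisphosphatase, by 1.35 (adjusted p = 0.295).

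Of 21 peroxisomal fatty acid oxidation genes 3 rose and 0 fell (median 0.79). CTA1, the peroxisomal catalase, read 9.40, 7.70 and 8.24 in SLAM and 5.76, 5.98 and 5.12 in YPM (log2 2.83, SE 0.69), and POT1, the thiolase, read 11.76, 9.07 and 10.89 in SLAM and 8.64, 8.74 and 7.95 in YPM (log2 2.13, SE 0.63). In glycolysis 1 of 19 genes rose and 1 fell. HXK2, the hexokinase that also takes part in glucose repression, read 8.47, 10.04 and 9.58 in SLAM and 11.32, 11.92 and 11.99 in YPM (log2 -2.38, SE 0.52, adjusted p = 0.0176). The other glucose-phosphorylating enzymes, named to complete the family, did not pass: HXK1 differed by -0.34 (SE 0.29) and GLK1 by -0.16 (SE 0.26). PFK26, which makes fructose-2,6-bisphosphate, rose by 1.33 (SE 0.29), and RGT2, a glucose sensor, rose by 1.09 (SE 0.24). ALD6, the cytosolic acetaldehyde dehydrogenase, fell by 2.69 (SE 0.69) on its brightest probe set, while a second one gave -0.35. Of 7 measured maltose genes and 13 of the tricarboxylic acid cycle 0 passed in either direction in limma. In that fit 1 and 3 had an unadjusted p under 0.05. Without SLAM replicate 2, 2 of the maltose genes rose and 1 of the cycle fell, where 11.4% of all genes rose and 13.6% fell. Over the 117 carbon genes 9 rose and 3 fell, where 5.23% of all genes rose and 7.34% fell. The counts were 24 and 3 without SLAM replicate 2, and 4 and 2, 1 and 0, and 2 and 0 without YPM replicates 1, 2 and 3. Leaving out SLAM replicate 1 gave 5 and 2, and leaving out SLAM replicate 3 gave 1 and 0.

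Of 12 genes of siderophore uptake and iron retention 3 passed, all lower in SLAM (median -1.92). Wholly below YPM lay 8, where 20.4% of all genes did. FIT1 and FIT2 encode cell wall mannoproteins that hold iron-siderophore complexes. FIT1 read 7.76, 6.73 and 7.87 in SLAM and 11.02, 11.58 and 12.53 in YPM, a 19.1-fold fall (log2 -4.26, SE 1.02, adjusted p = 0.0239). FIT2 read 7.04, 9.37 and 7.29 in SLAM and 11.15, 12.56 and 12.70 in YPM (log2 -4.23, SE 1.10). ARN2, a siderophore transporter, read 8.79, 9.18 and 8.70 in SLAM and 11.01, 11.98 and 12.30 in YPM (log2 -2.87, SE 0.82). The standard errors of FIT1 and FIT2 are more than 3 times the median of 0.287 over all genes. FIT3, named to complete the family, overlapped between the groups (log2 -1.51, SE 1.02, adjusted p = 0.338), with 13.39 in SLAM replicate 2.

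Of 22 genes of reductive iron and copper uptake 1 rose and 4 fell (median -1.07). Among the 22, 14 lay wholly below YPM, where 20.4% of all genes did. CTR1, the high-affinity copper transporter, read 7.87, 6.31 and 7.93 in SLAM and 10.03, 10.30 and 10.27 in YPM (log2 -2.83, SE 0.40, adjusted p = 0.00344). CTR3, a second copper transporter, read 9.83, 7.45 and 9.26 in SLAM and 11.49, 12.09 and 11.92 in YPM (log2 -2.99, SE 0.59). FRE1, the surface reductase for iron and copper, read 7.03, 5.78 and 6.77 in SLAM and 8.83, 10.10 and 9.58 in YPM (log2 -2.97, SE 0.57). In these 3 copper genes SLAM replicate 2 was furthest from YPM, unlike in most lists. CCC2, which loads copper onto the iron oxidase, fell by 1.96 (SE 0.40). CRS5, a copper metallothionein, rose, with 11.08, 9.49 and 10.50 in SLAM and 8.23, 8.13 and 8.43 in YPM (log2 2.09, SE 0.44). CCC1, which moves iron into the vacuole, rose by 1.37 (SE 0.39), as did the iron-sulfur enzyme BIO2 by 1.29 (SE 0.32). Both belong to 14 genes of iron storage and iron-sulfur protein use, of which 3 rose and 0 fell. The median of the 14 was -0.03, with 7 above 0 and 7 below.

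Phosphate genes went both ways, with 4 of 27 higher and 3 lower (median 0.19). PHO84, the high-affinity phosphate transporter, read 8.38, 8.29 and 8.18 in SLAM and 11.30, 11.52 and 11.52 in YPM, an 8.97-fold fall (log2 -3.17, SE 0.63, adjusted p = 0.0132). Its SE also pools the deletion strain's arrays and is wider than the wild-type values alone would make it. PHO87, a low-affinity transporter, fell by 1.27 (SE 0.35). PHO8, the vacuolar alkaline phosphatase, read 9.37, 9.01 and 9.81 in SLAM and 7.29, 7.15 and 6.98 in YPM (log2 2.25, SE 0.27, adjusted p = 0.00131). PHM8, a phosphatase of nucleotide breakdown, rose by at least 1.62 on the log2 scale. Over the 87 metal and phosphate genes 8 rose and 10 fell, where 5.23% of all genes rose and 7.34% fell. Without SLAM replicate 2 the counts were 11 and 15, where 11.4% of all genes rose and 13.6% fell. With YPM replicates 2 and 3 left out the counts were 1 and 1, and 2 and 4. With SLAM replicates 1 and 3 left out they were 3 and 7, and 1 and 3.

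Of 38 vitamin and cofactor genes 6 rose and 3 fell (median 0.24). VHR2, a relative of the biotin-responsive regulator VHR1, read 7.66, 7.82 and 6.80 in SLAM and 10.24, 10.72 and 10.64 in YPM (log2 -3.11, SE 0.30, adjusted p = 0.000371). VHT1, the biotin importer, read 8.51, 8.83 and 8.15 in SLAM and 8.83, 10.15 and 10.27 in YPM (log2 -1.25, SE 0.34), so that the groups met at 8.83. The synthesis genes BIO2, BIO3 and BIO4 rose by 1.29, 0.95 and 1.76. BIO4 read 8.12, 7.37 and 7.64 in SLAM and 6.51, 6.04 and 5.31 in YPM. Among 30 fatty acid, phospholipid and inositol genes 3 rose and 2 fell, and both falls were fatty acid elongases, ELO2 (log2 -1.50, SE 0.38) and ELO3 (log2 -1.19, SE 0.30). DGA1, which makes storage triacylglycerol, rose by 1.01 (SE 0.23). Over the 96 lipid and cofactor genes 9 rose and 5 fell, where 5.23% of all genes rose and 7.34% fell. Without SLAM replicate 2 the counts were 17 and 6, where 11.4% of all genes rose and 13.6% fell. Leaving out SLAM replicate 1 gave 0 and 2, and leaving out SLAM replicate 3 gave 0 and 1. Leaving out YPM replicates 1, 2 and 3 gave 3 and 3, 0 and 1, and 0 and 1.

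Of 15 genes of purine synthesis 0 rose and 5 fell (median -1.08), and 11 lay wholly below YPM, where 20.4% of all genes did. ADE6, of the main purine pathway, read 8.83, 8.94 and 8.80 in SLAM and 10.81, 9.87 and 9.97 in YPM (log2 -1.36, SE 0.28). IMD4, an IMP dehydrogenase of the GTP branch, read 9.23, 10.60 and 7.78 in SLAM and 11.21, 11.27 and 11.05 in YPM (log2 -1.97, SE 0.55), and IMD3 and IMD2, on probe sets marked for shared targets, fell by 1.44 and 1.18. Of 15 pyrimidine genes 2 rose and 2 fell, and the 2 CTP synthases were on opposite sides. URA8 read 11.42, 11.31 and 11.47 in SLAM and 9.86, 9.41 and 9.43 in YPM (log2 1.84, SE 0.34, adjusted p = 0.0109), and URA7 read 8.79, 9.26 and 8.14 in SLAM and 10.34, 10.51 and 10.57 in YPM (log2 -1.75, SE 0.33, adjusted p = 0.0115). The paralogous orotate phosphoribosyltransferase URA10 rose by 1.70 (SE 0.46), and FUR1, which salvages uracil, fell by 1.78 (SE 0.36). Over these 30 genes 2 rose and 7 fell, where 5.23% of all genes rose and 7.34% fell. With SLAM replicate 2 left out 3 rose and 10 fell, with YPM replicates 2 and 3 left out 0 and 1 rose and 1 and 4 fell, and with SLAM replicate 3 left out 1 rose and 1 fell. With YPM replicate 1 or SLAM replicate 1 left out 1 rose, and 5 and 7 fell.

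Of 23 genes of the Gpa2, cAMP and protein kinase A module 7 rose and 2 fell (median 0.23), so that 39.1% passed, where 12.6% of all genes did. GPA2 itself rose by 0.89 (SE 0.23, adjusted p = 0.0302). RGS2, which switches Gpa2 off, read 6.98, 6.95 and 6.15 in SLAM and 5.55, 4.92 and 5.14 in YPM, a rise of at least 1.09 on the log2 scale (adjusted p = 0.00793). The kinases that protein kinase A restrains rose: YAK1 by 1.10 (SE 0.29), with 0.42 and 0.79 on its other probe sets, and RIM15 by 0.88 (SE 0.22). TPK3, a catalytic subunit of protein kinase A, read 6.17, 6.84 and 5.72 in SLAM and 7.17, 7.54 and 7.63 in YPM (log2 -1.20, SE 0.31). Of 32 genes of TORC1 and nitrogen signalling 3 rose and 0 fell, so that 9.38% passed, below the 12.6% of all genes. Those that rose were NPR1 and 2 subunits of the complex that holds TORC1 back in starvation, IML1 (log2 1.08, SE 0.29) and NPR2 (log2 0.83, SE 0.22).

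The labels call SLAM pseudohyphal-inducing. Of 33 filamentous growth genes 2 rose and 1 fell (median 0.02), so that 9.09% passed, where 12.6% of all genes did. PHD1, a transcription factor whose overproduction drives pseudohyphal growth, read 8.82, 9.28 and 9.18 in SLAM and 7.89, 6.71 and 7.56 in YPM (log2 1.71, SE 0.34, adjusted p = 0.0135). FLO11, the surface flocculin that pseudohyphae need, read 13.46, 13.11 and 13.52 in SLAM and 13.21, 12.96 and 13.01 in YPM, and did not pass (log2 0.31, SE 0.27, adjusted p = 0.468). FLO11 was thus near the top of the measured range in both media. XBP1, a stress-induced repressor, rose by 1.34 (SE 0.36), and SHO1, a membrane sensor, fell by 1.09 (SE 0.31). Over the 88 signalling and growth form genes 12 rose and 3 fell, where 5.23% of all genes rose and 7.34% fell. Without SLAM replicate 2 the counts were 17 and 5, where 11.4% of all genes rose and 13.6% fell. Leaving out SLAM replicate 1 gave 3 and 2, and leaving out SLAM replicate 3 gave 2 and 1. Leaving out YPM replicates 1, 2 and 3 gave 6 and 2, 0 and 0, and 2 and 1.

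Few cell cycle genes were called, where 5.23% of all genes rose and 7.34% fell. Of 30 cyclins and cell cycle regulators 0 passed in either direction in limma (median -0.11) and 2 had an unadjusted p under 0.05. Of 37 genes of DNA replication and histones 2 fell, POL12 (log2 -0.89, SE 0.22) and RFC1 (log2 -0.60, SE 0.17). Of 41 genes of daughter cell separation and the cell wall 2 rose. PIR3, a cell wall protein, read 10.90, 9.23 and 11.37 in SLAM and 8.57, 7.80 and 7.74 in YPM (log2 2.46, SE 0.55), and YGP1, a secreted glycoprotein made in starvation, rose by 0.89 (SE 0.24). Of 22 genes of meiosis entry 1 rose, RIM15, and IME1, the master activator of meiosis, named after its values were seen, differed by -0.11 (adjusted p = 0.922). Of the 22 haploid-specific mating genes 4 rose, or 0 with YPM replicate 2, YPM replicate 3 or SLAM replicate 3 left out and 2 without SLAM replicate 1, and the largest call, MFA1, came from a probe set marked for shared targets, where a second MFA1 probe set gave 0.16. Over the 130 cell cycle genes 3 rose and 2 fell. Without SLAM replicate 2 the counts were 9 and 7, where 11.4% of all genes rose and 13.6% fell. Without YPM replicate 1 they were 1 and 1. The counts were 0 and 0 with any other wild-type array left out.

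Some of the largest changes fell to genes in none of these lists or with little described function. LEE1, a zinc-finger protein, read 9.62, 7.91 and 10.84 in SLAM and 6.38, 5.95 and 5.82 in YPM (log2 3.40, SE 0.56, adjusted p = 0.00663). RTS3, thought to act with protein phosphatase 2A, read 10.50, 9.44 and 11.56 in SLAM and 7.71, 6.99 and 7.44 in YPM (log2 3.12, SE 0.42). UGX2, of unknown function, read 10.95, 10.32 and 11.34 in SLAM and 8.16, 7.41 and 7.75 in YPM (log2 3.10, SE 0.33, adjusted p = 0.000689). NRS1 read 9.66, 7.48 and 9.15 in SLAM and 6.26, 4.83 and 4.61 in YPM, a rise of at least 2.95 on the log2 scale. NRS1 is named for a nitrogen-responsive regulator of the start of the cell cycle. YCL048W-A, a small reading frame, read 10.52, 7.16 and 10.45 in SLAM and 5.81, 5.35 and 5.61 in YPM, a rise of at least 3.70, and MOH1, a stationary-phase protein, rose by 3.24 (SE 0.71). INA1, a little-studied membrane protein, fell, with 6.42, 6.84 and 6.49 in SLAM and 9.70, 9.47 and 10.19 in YPM (log2 -3.20, SE 0.57). LEE1, RTS3, UGX2 and INA1 passed under all 24 alternatives.

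The response of single genes in the strain without GPA2 was compared with that of the wild type. GAP1 differed between SLAM and YPM by 4.14 in the deletion strain and 4.29 in the wild type, a difference of -0.15 (SE 0.51). RPS22B differed by -3.40 in the deletion strain and -3.39 in the wild type (difference -0.01, SE 0.53), and HXK2 by -3.63 and -2.38 (difference -1.25, SE 0.73). Of the 193 genes named by rule 0 had a response that differed between the strains at an adjusted p under 0.05 in limma, and 16 did at an unadjusted p under 0.05 (8.29%). The lowest adjusted p among them was 0.980. Over all 5656 genes 0 passed in limma, 228 had an unadjusted p under 0.05 (4.03%), and the lowest adjusted p was 0.173. Most of the 193 were named for their wild-type change, which is 1 side of the difference tested. The 8.29% and the 4.03% are therefore not a like comparison. Standard errors of this difference had a median of 0.406.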

How the data were processed

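Gene expression was read on 12 Affymetrix Yeast S98 arrays, 1 RNA sample each. The deposited table holds log2 expression values. GCOS 1.2, MAS5 and RMA are listed in the submitters' processing notes with no role, so the program that made the log2 values is not given in the sources used here. Array medians lay between 7.33 and 7.50, no further normalization was applied, and detection calls were not used here; the number of arrays limits the precision. The 60 control probe sets were left out, as were 328 probe sets with several gene symbols and 2443 with none. For the 315 genes with more than 1 probe set the one with the highest mean over 12 arrays was used. Of the resulting 5656 genes 300 were read by probe sets marked for shared targets.

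All 12 arrays entered 1 limma 3.58.1 model (lmFit, eBayes, R 4.3.3) that gives each of the groups its own mean, with 8 residual and 4.11 prior degrees of freedom, after a test on simulated data. Adjusted p-values are limma's two-sided p-values after Benjamini-Hochberg adjustment over 5656 genes, and a gene passed at an adjusted p under 0.05. SE is the standard error of the log2 difference. Cultures are separate per the design text. Fold changes and medians use these log2 differences.

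The 59 gene lists (1406 tested genes) were written from general knowledge. Both the members and the lists were chosen with earlier results of these data known, so their counts are descriptions. Genes were named by rule: the 15 largest rises and 15 largest falls among passing, non-overlapping genes on probe sets not marked for shared targets, GPA2, URA3 and FLO11, and up to 4 passing members of each list in each direction, or the 2 with the lowest p where none passed. This gave 193 genes. Alternatives were other moderation, array weights, quantile normalization, median centring, a floor at log2 4.32, filters on dim and shared probe sets, all probe sets, the 6 wild-type arrays alone, stricter thresholds and each array left out. Gene order comes from RefSeq assembly R64. Promoter sequences were not analysed here.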

Additional observations from a re-analysis of the deposited data

Results flagged for a closer look

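Probe sets that name no gene were left out of the comparison of genes, but some of them changed as well. Of 2443 such probe sets 79 passed at an adjusted p under 0.05 in the limma fit over all 9275 probe sets (3.23%), 51 of them higher and 28 lower in SLAM than in YPM. Their median level was 5.64, against 7.97 for the probe sets with 1 gene symbol, of which 8.92% passed in the same fit. Of the 328 probe sets with several symbols 18 were higher and 21 lower (11.9%). Which transcripts the unnamed probe sets read was not tested.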

How the results depend on the processing

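The number of genes called depended on single arrays more than on the normalization. Without 1 array the total lay between 62 (YPM replicate 2 left out) and 1414 (SLAM replicate 2 left out), against 711 with all arrays. The higher genes numbered 36 to 647 and the lower genes 26 to 767 in the same series. The wild-type arrays alone gave 376 genes (163 higher, 213 lower), array weights gave 2203 (969 and 1234), with the lowest weight, 0.172, on SLAM replicate 2, and a threshold of 0.01 gave 70 (43 and 27). A stricter threshold makes fewer calls by construction. The cause of the other shifts was not tested. Median centring over the tested genes, chosen after seeing the data, gave 381 higher and 362 lower. The other alternatives stayed within 1.5 times the total. Of 176 passing named genes 26 passed under every one of the 24 alternatives that tested them, 150 lost the call under at least 1, and 0 changed sign. In all but 3 of the 176 the SLAM and YPM values did not overlap, so leaving out an array could not turn the sign. Other moderation and stricter thresholds leave the difference itself unchanged. The lack of sign changes is therefore little check on these genes. The median of 48 of 59 lists kept its sign under every alternative run on lists. Of the other 11, zinc homeostasis had a median of -0.34 (0.03 without SLAM replicate 2), and the rest lay between -0.09 and 0.09. The count of named genes whose response differed between the strains was 0 to 1 with 1 array left out, the 1 being NOP1 without SLAM replicate 3 (adjusted p = 0.0363, limma). No paired analysis was possible because the labels give no replicate numbers that the media share.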

Other observations

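Of 45 secretion and glycosylation genes 0 rose and 5 fell (11.1%, where 7.34% of all genes fell; median -0.42), and 41 lay below 0. SEC63, of the channel that imports proteins into the endoplasmic reticulum, read 5.63, 6.36 and 5.72 in SLAM and 7.10, 7.61 and 7.55 in YPM (log2 -1.52, SE 0.40). PMT1, which adds mannose to secreted proteins, read 9.34, 8.38 and 9.23 in SLAM and 10.21, 10.27 and 10.29 in YPM (log2 -1.27, SE 0.37), and SRP14, a part of the signal recognition particle, fell by 1.32 (SE 0.38). With SLAM replicate 2 left out 8 of the 45 fell, where 13.6% of all genes did. The number was 2 without YPM replicate 1, 2 without SLAM replicate 1, and 0 with YPM replicates 2 or 3 or SLAM replicate 3 left out. Of 28 genes of RNA polymerase II and the general transcription factors 1 rose, SSL1 (log2 0.85, SE 0.22), and 1 fell, RPB2 (log2 -0.81, SE 0.24). Thus 7.14% passed, where 12.6% of all genes did. With SLAM replicate 2 left out 1 rose and 5 fell, with YPM replicate 1 left out 0 and 1, and with any other wild-type array left out 0 and 0.

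Several lists held no call in limma with all arrays. The share of all genes at an unadjusted p under 0.05 is not given here, so the counts under that cut cannot be read as an excess. Without SLAM replicate 2, 11.4% of all genes rose. Of 28 ergosterol genes 0 passed (median 0.10) and 6 had an unadjusted p under 0.05, with ERG27 at -0.82 (adjusted p = 0.0581) and ERG5 at 0.76 (adjusted p = 0.0587); 2 rose without SLAM replicate 2. Of 12 zinc genes 0 passed (median -0.34) and 1 had an unadjusted p under 0.05, and 1 rose without SLAM replicate 2. Of 22 genes of multidrug resistance and weak acid export 0 passed (median 0.44) with all arrays, 5 had an unadjusted p under 0.05, and 6 rose without SLAM replicate 2.

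Called genes were found at all levels. In 4 equal classes of genes by mean level, from dimmest to brightest, 3.96%, 4.53%, 6.44% and 6.01% were higher in SLAM and 4.74%, 7.99%, 8.06% and 8.56% lower. Of 50 passing genes with more than 1 probe set 45 had all of them on the same side of 0. Runs of 3 neighbouring tested genes called in the same direction were found 7 times in the order of R64, and no run was longer. The higher runs were DAL4, DAL2 and DCG1 on chromosome IX, MLS1, DMA2 and YNL115C on XIV, ADY3, GUD1 and AIM6 on IV, and YOL163W, YOL162W and CSS3 on XV. The lower runs were BMT2, MAK5 and SUP45 on II, MRPL24, RPL36A and SNR11 on XIII, and RPA43, RPA190 and YOR342C on XV. Of the 711 passing genes 398 belong to none of the 59 lists.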
